A study of Rattus norvegicus with 12 samples.

Results

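The 9 aquaporin genes Aqp1, Aqp2, Aqp3, Aqp4, Aqp5, Aqp7, Aqp8, Aqp9 and Aqp11 were followed in the rat cervix on the last day before birth and outside pregnancy. They were found on the microarray by their gene name, which gave 11 probes among 30367 probes of 26572 gene names. Every probe carrying one of these names was kept, whether or not it was detected. The arrays held cells of the cervix from 12 adult female Sprague Dawley rats, 1 array per rat and 3 rats in each of 4 groups. NP rats were nonpregnant and in proestrus, and D21 rats were at day 21 postbreeding. All 12 rats were perfused with warm saline, and each cervix was minced and dispersed with collagenase. In the whole cervix groups (NP rats 8, 9 and 10 and D21 rats 5, 6 and 7) the cells were frozen directly. In the Mφ-depleted groups (NP rats 5, 6 and 7 and D21 rats 1, 2 and 4) they first went through ED1 antibody and magnetic beads to take out macrophages (Mφs), so that the depleted cells also had more handling. The values come from bulk RNA of dispersed cells, in which fewer cells of a type and less RNA per cell cannot be told apart.

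Aquaporins are membrane proteins that form channels for water. Aqp1, Aqp2, Aqp4, Aqp5 and Aqp8 pass mainly water, whereas Aqp3, Aqp7 and Aqp9 are aquaglyceroporins that also pass glycerol and other small solutes, and Aqp11 is a distant relative found mainly inside the cell. Aqp1 is typical of the endothelium and of red blood cells, Aqp5 of gland cells, Aqp3 of the basal layers of stratified epithelium, and Aqp9 of the liver and of leukocytes. The cervix takes up water as it softens before birth, and aquaporins of its epithelium and stroma are among the candidates for the channels involved.

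The 5 genes Aqp1, Aqp3, Aqp5, Aqp8 and Aqp9, carry the results. The first 30 bases of the 60-base oligonucleotide that reports each of them are given to show exactly which stretch of transcript was measured.
Aqp1: ccactggcatagtacagctgcatactcttc
Aqp3: tgatcctcaactaggggctgtgtatgtaat
Aqp5: agaatgtctgccacagctcagacctcagag
Aqp8: tcgtgcctttggacctgctgtgatggctgg
Aqp9: ggtgattgctaagaattttgaaacttgacc
In the rn4 build of the scanner files the probes lie at chr4:84110125-84110184 on the plus strand for Aqp1, chr5:58501847-58501906 on the minus strand for Aqp3, chr7:138340966-138341024 on the plus strand for Aqp5, chr1:182335905-182335964 on the plus strand for Aqp8 and chr8:75611562-75611621 on the minus strand for Aqp9. Their place relative to exons was not analysed here. The gene order in RefSeq (GRCr8) puts Aqp2, Aqp5 and Aqp6 next to each other on chromosome 7 and Aqp7 beside Aqp3 on chromosome 5, and Aqp8, Aqp9, Aqp1 and Aqp11 have no aquaporin as a direct neighbour.

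Expression is given on the log2 scale relative to the 75th percentile of the same array, so that 0 means as bright as that percentile and a step of 1 is a 2-fold change. The percentile ranged from 289.8 to 1171 intensity units over the 12 arrays, and 44.9% to 61.7% of probes per array were well above background by the scanner's own test. Levels are compared between rats for the same probe and never between genes, because probes differ in brightness. Checked against marker genes, the whole cervix held its labelled tissue: all 9 epithelial, all 10 fibroblast and at least 9 of 10 smooth muscle markers were well above background on every array of both whole groups. The summed level of 15 Mφ markers was 66.8 to 100.9 times the 75th percentile in whole NP cervix and 75.7 to 87.2 in whole D21 cervix, against 4.66 to 14.8 and 10.6 to 14.6 after depletion. Depletion changed more than Mφ markers, since the 10 fibroblast markers summed to 17.8 to 61.3 in depleted NP cervix, 325.4 to 487 in depleted D21 cervix and 444.5 to 688.2 in the whole groups.

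Aqp1, Aqp3 and Aqp5 were well above background in all 12 rats, Aqp8 in 11 and Aqp9 in 10. The rats below this limit were all from the depleted NP group, NP rat 6 for Aqp8 and NP rats 6 and 7 for Aqp9. Aqp11 passed in 6 rats spread over all 4 groups, whereas the kidney water channel Aqp2 passed in D21 rat 1 alone and the glycerol channel Aqp7 in NP rat 10 alone. The 3 probes of Aqp4, the water channel of brain astrocytes, passed in 1, 3 and 2 rats, all of them depleted. Among the other aquaporin names on the array, which are not members, Aqp6 was well above background on 0 of 12 arrays, Aqp12b on 4 and Mip, the lens aquaporin, on 3.

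**Figure D1:**
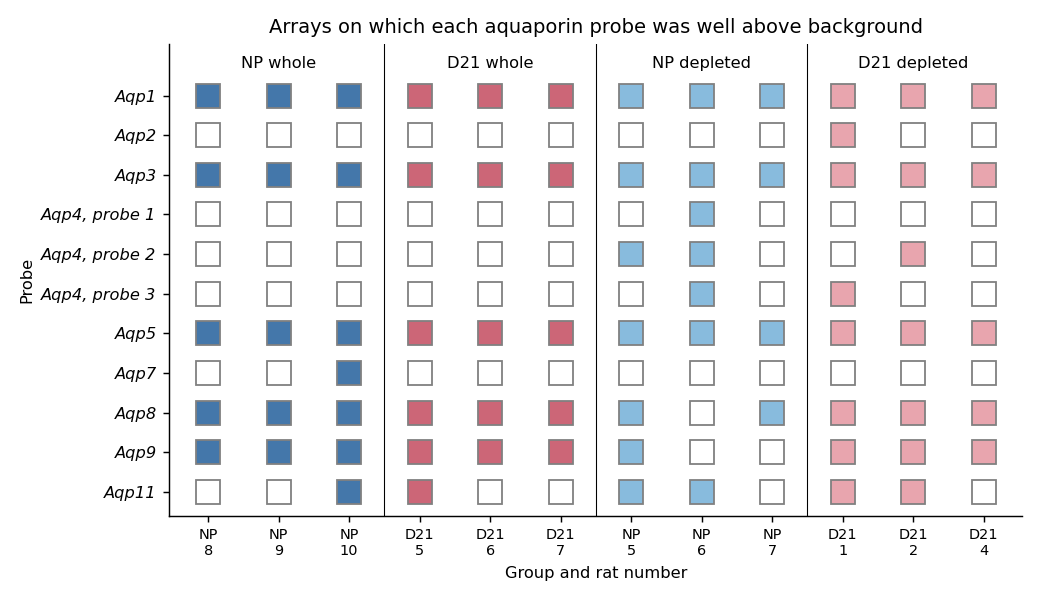
Filled squares mark the arrays (columns, by group and rat number) on which each of the 11 aquaporin probes (rows) was well above background, and open squares those on which it was not. Aqp1, Aqp3 and Aqp5 are filled in all 12 columns, and the 3 Aqp4 probes are open in every whole cervix sample.

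A gene entered the test where it was well above background in all 3 rats of at least 1 of the groups compared, which held for the same 5 of 9 members in every comparison. It was called where limma gave p below 0.01 and the groups differed 2-fold or more. These limits were taken from the methods, which name another test. The Benjamini-Hochberg adjusted p over all genes tested stands beside most but not all differences. Since the comparisons of pregnancy and of depletion share their groups, they are not independent of each other. Groups of 3 against 3 rats without overlap reach at best p = 0.1 in an exact permutation test. The share of all genes without overlap was not counted, so a lack of overlap is given as a description.

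The comparison of D21 with NP in whole cervix asks which genes differ at the end of pregnancy in dispersed cells from which no Mφs were removed. Of 5 members tested, Aqp9 was called higher and none lower, where 5.38% of the 14041 genes tested were called higher and 3.08% lower. The median difference was 2.13 for the 5 members and -0.08 for all genes tested. With 5 members the median is the value of a single gene, here Aqp5, whose groups overlapped. Aqp9, which passes glycerol and urea as well as water, measured 2.35, 0.45 and 2.08 in D21 rats 5, 6 and 7 and -1.20, -1.98 and -0.33 in NP rats 8, 9 and 10. All 3 D21 values were above all 3 NP values. Aqp9 was thus 6.97-fold higher at D21, with a log2 difference of 2.80 ± 0.79 (SE, n = 3 against 3, limma adjusted p = 0.0627), so it was called with limma but did not pass an adjusted limit of 0.05, and the methods' t-test did not call it.

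That call rested on few rats. Without NP rat 8 the Aqp9 difference was 2.79, without NP rat 9 it was 2.40, without D21 rat 5 it was 2.44 and without D21 rat 7 it was 2.58, and in each of these limma fits its p was above 0.01 (0.0133 to 0.0216). All 3 D21 samples and NP rat 10 shared a slide, on which the difference was 1.96, and with slide as a block it was not called (limma adjusted p = 0.524).

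Aqp8, which lets through ammonia and hydrogen peroxide besides water, measured 4.79, 5.45 and 5.06 in D21 rats 5, 6 and 7 and -0.58, 3.14 and 1.22 in NP rats 8, 9 and 10. The D21 values lay within 0.66 of each other and above all NP values, which themselves spread over 3.72. The difference of 3.84 ± 1.46, or 14.4-fold, was not called (limma adjusted p = 0.149), with a 95% interval of 0.63 to 7.06. It was called in the limma fit of these 6 arrays alone, in which the widely spread depleted NP values did not enter. It was also called without depleted NP rat 6 or rat 7, each with the same 3.84 (limma adjusted p = 0.0601 and 0.0388). On the slide that held all D21 samples and NP rat 10 the difference was 3.88.

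Aqp1, the water channel of blood vessels, measured 3.37, 3.37 and 3.22 in D21 rats and 2.37, 2.91 and 2.68 in NP rats. The groups did not overlap, and the D21 values were the tightest of any member and group, with an SD of 0.088. The difference was 0.66 ± 0.32 (limma adjusted p = 0.243), which is below 2-fold and was not called. The 10 endothelial markers summed to 19.5 to 21.2 in D21 and 14.4 to 24.6 in NP, and the 5 red blood cell markers on the array to 69.8 to 117.7 against 29.3 to 53.8. Their part in the Aqp1 level was not tested.

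Aqp3, an aquaglyceroporin of stratified epithelium, was the only tested member with a lower mean at D21 in both cell preparations. Its whole cervix values were 0.67, 1.74 and 1.30 at D21 and 2.77, 1.02 and 3.04 in NP rats. NP rat 9 lay among the D21 rats, and the difference of -1.04 ± 0.70 was not called (limma adjusted p = 0.407). Aqp5, the channel of secreting glands, measured 3.95, 0.61 and 3.87 at D21 and -0.54, 3.56 and -0.98 in NP rats. A single rat in each group sat with the other group, D21 rat 6 low and NP rat 9 high, and the difference of 2.13 ± 1.80 was not called (limma adjusted p = 0.513).

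Other genes and cell types also differed between these groups. The 8 secretory epithelial markers summed to 66.9 to 84.3 in whole D21 cervix and 9.02 to 36.0 in whole NP cervix, with 3 of 7 tested called higher, and 6 of 9 epithelial markers were called higher although their sums overlapped (243.5 to 402 against 123.2 to 398.9). Neutrophil markers, of interest because leukocytes express Aqp9, summed to 1.04 to 1.59 at D21 and 1.75 to 3.26 in NP rats. None of the 4 tested was called, and Cxcr2 alone had a higher mean at D21 (0.70 ± 0.64). The summed Mφ markers overlapped, but 1 of 13 tested was called higher at D21 and none lower. The marker called was Cd163, which differed by 3.61 ± 0.50 without overlap (limma adjusted p = 0.00437). Muc5ac was well above background in no sample of the 4 groups. The part of these cells in the Aqp8 and Aqp9 values was not tested.

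**Figure D2:**
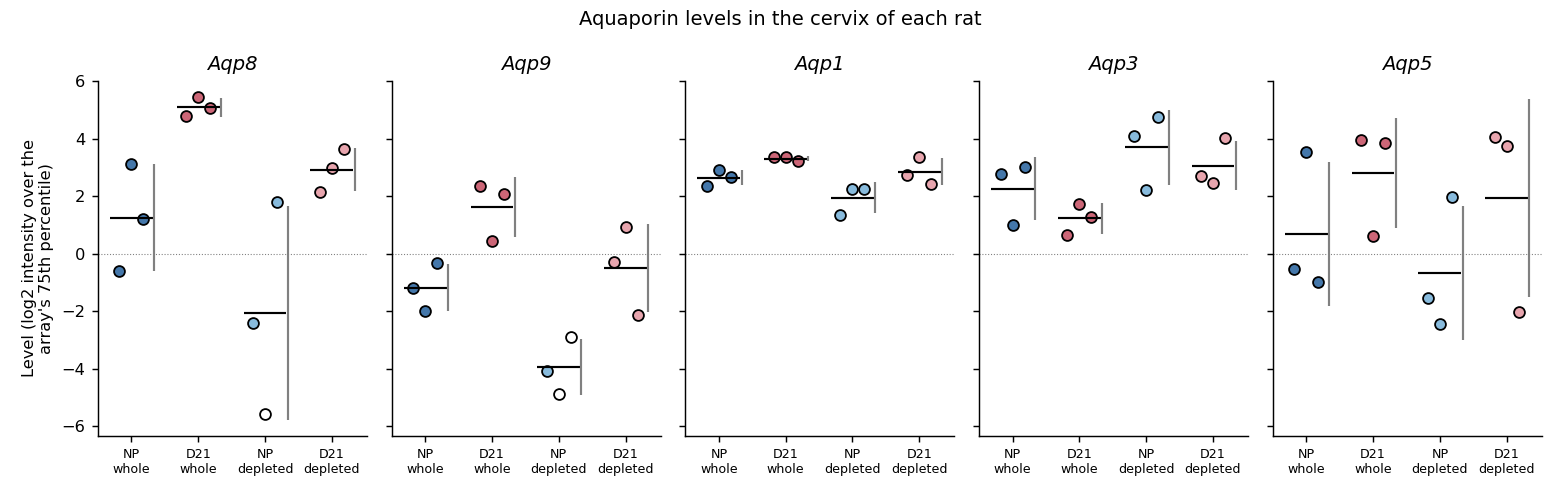
Level of the 5 tested aquaporin genes in each rat (points, log2 intensity relative to the array's 75th percentile, dotted line at 0), with the group mean (horizontal line) and SD (grey bar, n = 3); open points were not well above background. Aqp1, Aqp8 and Aqp9 lie higher in the D21 than in the NP rats of the same preparation without overlap, while Aqp5 spreads over several log2 units within each group.

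In Mφ-depleted cervix the same comparison of D21 with NP called 2 of 5 members higher and none lower, against 5.44% of 13394 genes called higher and 2.06% lower. The 2 called, Aqp8 and Aqp9, entered the test only through the D21 group. In NP rats they were well above background in 2 and 1 of 3, so the filter favoured a call as higher. The median difference was 2.59 for the 5 members, again the value of Aqp5, and 0.02 for all genes. Aqp9 measured -0.29, 0.93 and -2.12 in D21 rats 1, 2 and 4 and -4.06, -4.86 and -2.91 in NP rats 5, 6 and 7. All D21 values were above all NP values, of which those of rats 6 and 7 were not well above background. The difference of 3.45 ± 0.79 was called (limma adjusted p = 0.0316), with 1 of 3 NP rats well above background, so that its size is uncertain. It kept its limma call with any 1 rat left out, at 2.74 to 4.26, but the methods' t-test did not call it, and it was not tested where detection was required on every array. On slide 1, with D21 rat 2 against NP rats 5 and 6, the difference was 5.39, and on slide 3, with D21 rat 4 against NP rat 7, whose reading was not well above background, it was 0.79.

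Aqp8 measured 2.14, 3.00 and 3.66 in depleted D21 rats 1, 2 and 4 and -2.42, -5.57 and 1.82 in depleted NP rats 5, 6 and 7. The groups did not overlap, but the NP values spread over 7.39, and the lowest was not well above background. The difference of 4.99 ± 1.46 (31.8-fold, limma adjusted p = 0.0823) was called without passing an adjusted limit of 0.05, and not by the methods' t-test. It was 3.24 without NP rat 6, 4.81 without NP rat 5, 4.96 without D21 rat 2 and 4.63 without D21 rat 4, and it was not called in any of these fits. Within slide 1 it was 7.00 and within slide 3 it was 1.84.

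Aqp1 measured 2.76, 3.38 and 2.45 in depleted D21 rats and 1.34, 2.27 and 2.27 in depleted NP rats. The groups did not overlap, and the difference of 0.90 ± 0.32 was below 2-fold (limma adjusted p = 0.133). It was called without D21 rat 4, at 1.11. Aqp3 measured 2.69, 2.47 and 4.03 at D21 and 4.12, 2.24 and 4.76 in NP rats, a difference of -0.64 ± 0.70 with overlapping groups (adjusted p from limma 0.624). Aqp5 measured 4.08, 3.75 and -2.03 at D21 and -1.52, -2.43 and 1.99 in NP rats. D21 rat 4 was thus more than 5 log2 units below the other D21 rats, and the difference of 2.59 ± 1.80 was not called (adjusted p from limma 0.417). That rat also had the lowest secretory epithelial sum of its group (28.3, against 73.6 and 74.9) and the lowest red blood cell sum (2.77, against 57.9 and 73.5). Depleted NP rat 7 went the other way, with the highest Aqp5 of its group and the lowest secretory epithelial sum (13.45, against 26.29 and 24.35). The part of these cells in the Aqp5 values was not tested.

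**Figure D3:**
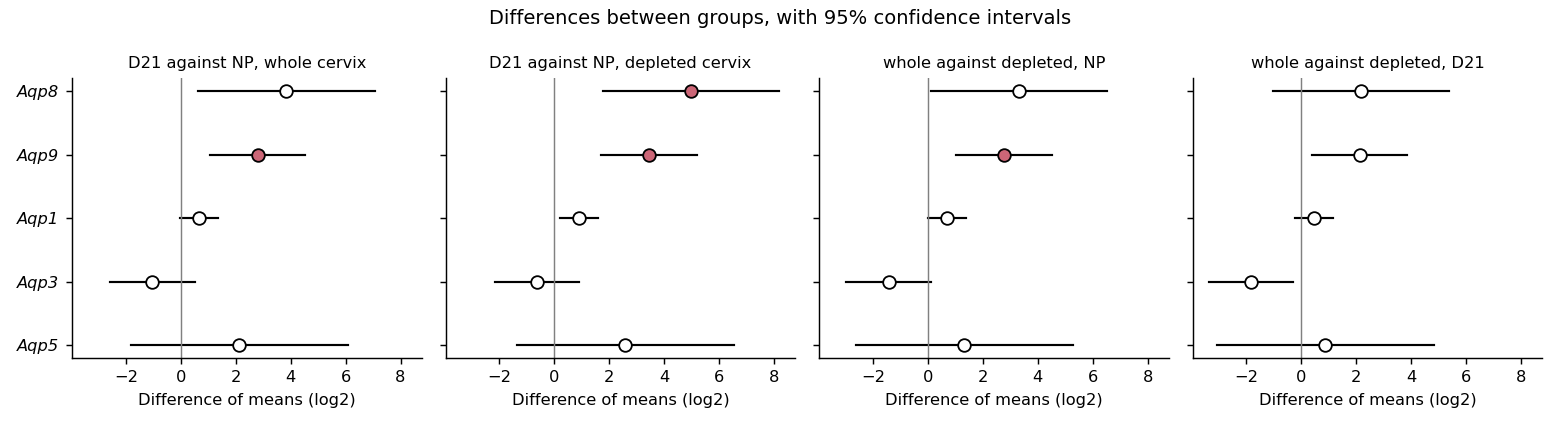
Difference of group means (log2, points) with the 95% confidence interval from limma (lines) for the 5 tested aquaporin genes in each comparison; filled points were called at p below 0.01 and at least 2-fold. The filled points are Aqp9 in 3 of the 4 panels and Aqp8 in depleted cervix, and every Aqp5 interval crosses 0.

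The comparison of whole with Mφ-depleted cervix asks which transcripts went with the cells that the beads removed. In NP rats Aqp9 was called higher in whole cervix, 1 of 5 members, where 13.6% of the 13396 genes tested were called higher and 10.7% lower. Aqp8 and Aqp9 entered this test only through the whole cervix group, so the filter favoured a call as higher for both. The median difference was 1.33 for the members, the value of Aqp5 with its overlapping groups, and -0.04 for all genes. The whole cervix values of Aqp9 (-1.20, -1.98 and -0.33) all lay above the depleted ones (-4.06, -4.86 and -2.91). The difference of 2.77 ± 0.79 (limma adjusted p = 0.0200) did not hold as a call under the methods' t-test, and it was measured against a depleted group in which only rat 5 was well above background. It was 2.71 without depleted NP rat 5, 2.31 without depleted NP rat 6, 2.78 without whole NP rat 8 and 2.35 without whole NP rat 10, each time with a limma p above 0.01. On the only slide with both preparations, 2 whole samples against depleted rat 7, whose reading was not well above background, the difference was 1.31.

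Aqp8 was 3.32 ± 1.46 higher on the log2 scale in whole than in depleted NP cervix, but the groups overlapped and it was not called (limma adjusted p = 0.104). The value turned on depleted NP rats 6 and 7. Rat 7, at 1.82, was in the whole cervix range, and rat 6, at -5.57, was not well above background. Without rat 7 the difference was 5.26 and called (limma adjusted p = 0.00502), and without rat 6 it was 1.56 and not called. Within the slide that held rat 7 the difference was -0.54. Aqp1 was 0.69 ± 0.32 higher in whole NP cervix with no overlap between groups and no call (limma adjusted p = 0.113). Aqp3 differed the other way, by -1.43 ± 0.70, and was not called (limma adjusted p = 0.140), but it was called without depleted NP rat 6 (-2.17), with slide as a block (-2.86) and with scan day as a block (-2.48). Aqp5 differed by 1.33 ± 1.80 with overlapping groups, and by -0.11 without whole NP rat 9.

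In D21 rats none of 5 members was called by limma in either direction, where 10.0% of the 14241 genes tested were called higher in whole cervix and 7.72% lower. At an unadjusted limma p below 0.05 there were 2 of 5 members and 5535 of all genes tested, a similar share. The median difference was 0.87 for the members, the value of Aqp5 with its overlapping groups, and -0.06 for all genes. Aqp9 was 2.12 ± 0.79 higher in whole D21 cervix (limma adjusted p = 0.073), and whole rat 6 at 0.45 fell below depleted rat 2 at 0.93. It was called when either of these was left out, at 2.83 without depleted rat 2 and 2.71 without whole rat 6. Aqp3 differed by -1.83 ± 0.70 in whole cervix with no overlap (limma adjusted p = 0.080), and was called without depleted NP rat 6, at the same difference. It was also called with slide as a block (-3.95) and with scan day as a block (-2.81), fits in which depleted D21 rat 1, alone on its slide and day, carries no weight.

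Aqp8 was 2.17 ± 1.46 higher in whole D21 cervix with no overlap and no call (limma adjusted p = 0.293). It was called in the limma fit of the 6 arrays alone (adjusted p = 0.0181). With scan day as a block the difference was -0.03, and with slide as a block 0.03. No slide held both D21 preparations, and against depleted rat 4, which shared the scan day of the 3 whole samples, the difference was 1.44. Aqp1 differed by 0.45 ± 0.32 and Aqp5 by 0.87 ± 1.80, both with overlapping groups. Without depleted D21 rat 4 the Aqp5 difference was -1.11.

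The effect of depletion was then compared between D21 and NP rats as 1 difference of differences. None of 5 members was called by limma, and none reached an unadjusted p below 0.05, where 2.43% of 14549 genes were called higher and 5.00% lower. The values were -0.65 ± 1.13 for Aqp9, -1.15 ± 2.08 for Aqp8, -0.24 ± 0.45 for Aqp1, -0.40 ± 1.00 for Aqp3 and -0.46 ± 2.56 for Aqp5, with limma adjusted p from 0.787 to 0.940. The intervals were wide, from -3.12 to 1.82 for Aqp9. Whether Aqp9 was lost more in 1 group than in the other was thus not resolved within that range.

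Several cell types moved with depletion beside Mφs. In NP rats 9 of 11 tested Mφ markers and 9 of 10 tested fibroblast markers were called higher in whole cervix, and in D21 rats 11 of 13 and 3 of 10. Of the 15 Mφ markers, 6 were well above background in no depleted NP sample and 3 in all of them, and in depleted D21 samples these counts were 4 and 5. Cd68, the antigen of the ED1 antibody, was among those detected throughout and did not pass the test for depletion (0.54 ± 0.62 in NP and -0.15 ± 0.62 in D21 rats), whereas Csf1r, the receptor on which Mφs depend, was higher in whole cervix by 6.68 ± 0.41 and 6.74 ± 0.41; this pair is named after its values were seen. Smooth muscle markers were called higher in whole cervix in 9 of 9 tested in NP rats, where their sums were 21.4 to 28.6 depleted and 434.8 to 683.1 whole, and in 6 of 9 in D21 rats, and mast cell markers in 4 of 6 and 5 of 7. The red blood cell markers summed to 0.546 to 11.2 in depleted NP, 2.77 to 73.5 in depleted D21, 29.3 to 53.8 in whole NP and 69.8 to 117.7 in whole D21 cervix. The epithelial sums were higher after depletion, at 418.3 to 915.2 against 123.2 to 398.9 in NP rats and 449.9 to 632.6 against 243.5 to 402 in D21 rats. The single markers were less uniform. In NP rats 4 of 9 were called lower in whole cervix and none higher. In D21 rats 2 of 9 were called lower and 1 higher, with a median difference of 0.10. The sums of 17 immediate-early genes were also higher after depletion, at 96.3 to 142.2 against 27.5 to 31.3 in NP rats and 170.3 to 176.2 against 47.2 to 54.9 in D21 rats. Neutrophil sums were 0.39 to 0.683 depleted and 1.04 to 1.59 whole in D21 rats, and in NP rats 0.607, 6.77 and 0.791 in depleted rats 5, 6 and 7 against 1.75 to 3.26 whole. The part of these differences in the aquaporin values was not tested.

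**Figure D4:**
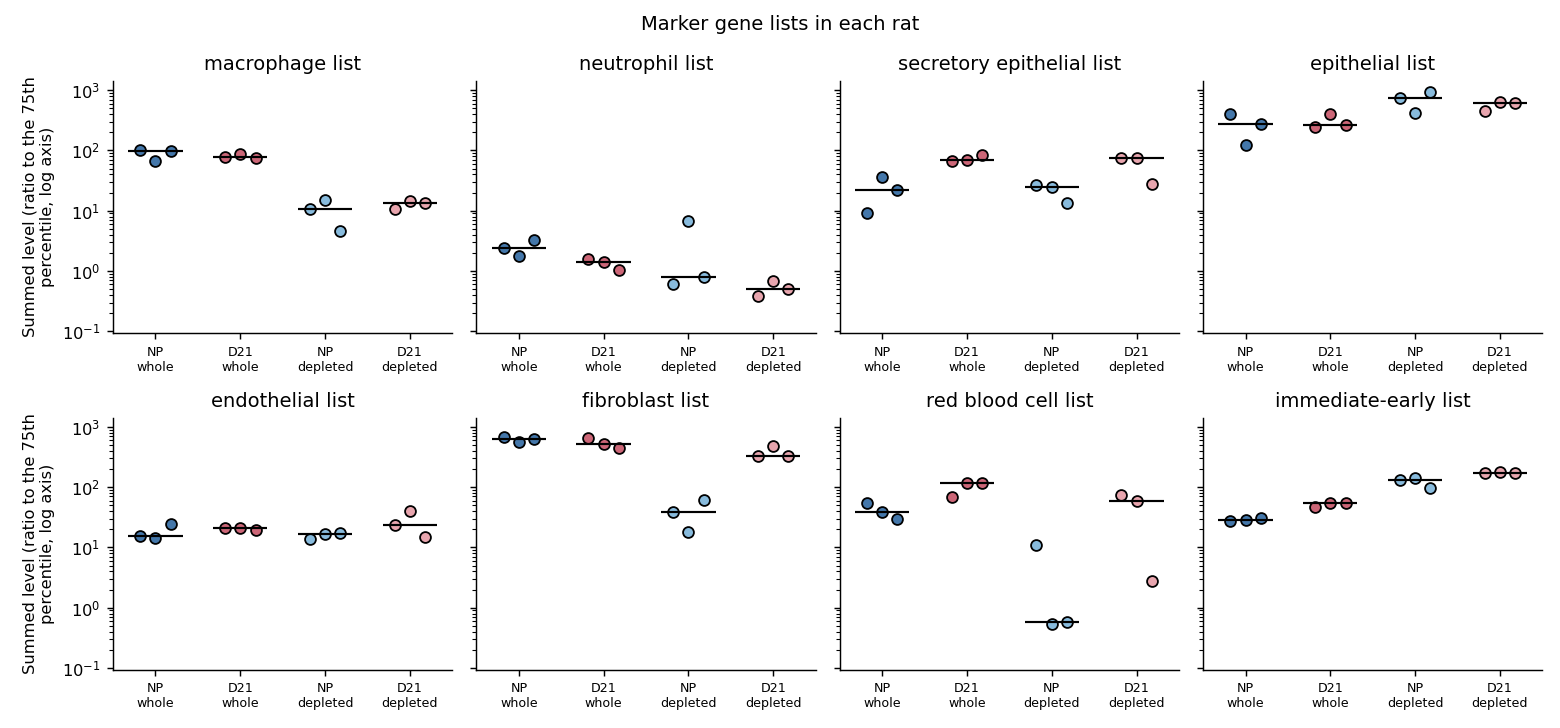
Summed level of 8 marker gene lists in each rat (points, ratio to the array's 75th percentile on a log axis), with the group median (line). The Mφ sums are lower in both depleted groups, the fibroblast sums are lowest in depleted NP cervix, and the secretory epithelial sums are highest in whole D21 cervix and in 2 of 3 depleted D21 rats.

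The other 4 members stayed out of the main tests because they were well above background in too few rats. Aqp11 ranged from -5.67 to -3.34 over the 12 rats, and its group means lay between -5.29 and -4.17. Aqp7, the glycerol channel of fat cells, was -1.87 in whole NP rat 10 and between -7.59 and -4.51 in all rats of the other groups. Its mean in whole NP cervix was 1.88-fold higher than in whole D21 cervix and 2.10-fold higher than in depleted NP cervix. Here each array of the dimmer group counted with the higher of its own value and the faintest detected signal. Whole NP rats 8 and 9 were not well above background and counted with their own values, so these folds are not lower bounds. Both rest on that 1 of 3 whole NP rats. Aqp2 had group means from -5.22 to -4.63. The Aqp4 probes read between -7.47 and -0.83, and depleted NP rat 6 was the only rat in which all 3 were well above background, at -0.83, -2.32 and -4.57.

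For each member detected in all 12 rats, the genes whose levels followed it most closely were sought among 10908 genes well above background in every sample. Aqp1 was closest to Clec2g, a C-type lectin-like gene (r = 0.947), Cd1d1, which presents lipid antigens (r = 0.929), and Cmbl (r = 0.928). Aqp3 was closest to an unnamed transcript (r = 0.946), Trim29 (r = 0.942) and Pkp1, a desmosome protein of stratified epithelium (r = 0.938). Aqp5 was closest to another unnamed transcript (r = 0.944), followed at a distance by the laminin chain gene Lamc1 (r = 0.845) and an unnamed sequence (r = 0.843). These are Pearson correlations over 12 arrays that fall into 4 groups and share slides, given as a description.

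Genes that work with aquaporins were read from 3 lists. Of 20 ion and fluid transport genes, 18 were on the array. In whole cervix 2 of 17 tested were called higher at D21 and none lower, with a median difference of 0.39. Over all genes tested 5.38% were called higher and 3.08% lower. Scnn1a, the alpha subunit of the epithelial sodium channel, rose by 2.35 ± 0.30 to a mean of 0.04 (limma adjusted p = 0.00393), and Fxyd3, a regulator of the sodium pump, rose by 1.66 ± 0.31 to 6.04 (limma adjusted p = 0.0135). In depleted cervix 1 of 17 was called higher at D21 and 1 lower, against 5.44% and 2.06% of all genes tested. These were Scnn1a (1.03 ± 0.30) and the carbonic anhydrase Car12 (-1.57 ± 0.50), neither with an adjusted p below 0.05. This pair is named after its values were seen.

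In NP rats 4 of 16 tested transport genes were called lower in whole than in depleted cervix, and none higher. Among them were Fxyd3 (-2.18 ± 0.30), the anion exchanger Slc26a6 (-1.60 ± 0.26) and Scnn1a (-1.35 ± 0.30), with limma adjusted p from 0.000294 to 0.00524. These transport genes were thus brighter after depletion, where Aqp9 was dimmer.

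Of 12 genes of osmotic and vasopressin control, the cation channel Trpv4 was the only one of 9 tested that was called in whole cervix, rising at D21 by 2.08 ± 0.30 (limma adjusted p = 0.00474), and it also rose in depleted cervix, by 1.37 ± 0.29 (limma adjusted p = 0.0234). Avpr2, the vasopressin receptor that controls Aqp2, and Adcy6 were well above background in no whole cervix sample. Avpr1a alone of 8 tested was called lower at D21 in depleted cervix (-1.31 ± 0.36, limma adjusted p = 0.0666) and is named after its value was seen. Between whole and depleted cervix, 1 of 7 tested was called higher and 3 lower in NP rats, and 1 of 9 higher and 1 lower in D21 rats. Over all genes tested these shares were 13.6% higher and 10.7% lower in NP rats, and 10.0% and 7.72% in D21 rats. Akr1b1, which makes the osmolyte sorbitol, was called higher in whole cervix in NP rats (2.23 ± 0.30, limma adjusted p = 0.000205) and in D21 rats (1.58 ± 0.30, limma adjusted p = 0.00544). The amino acid transporter Slc38a2 was called lower in both (-1.34 ± 0.31 in NP and -1.18 ± 0.31 in D21 rats), and in NP rats so were the osmotic transcription factor Nfat5 (-1.40 ± 0.30) and Trpv4 (-1.06 ± 0.29).

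Of 8 genes of glycerol and lipid handling, which serve the solute carried by Aqp3, Aqp7 and Aqp9, 7 were on the array and none was called between D21 and NP in either preparation. Gpd2, the mitochondrial glycerol-3-phosphate dehydrogenase, was called lower in whole than in depleted cervix, at -1.70 ± 0.39 in NP rats (limma adjusted p = 0.00635) and -1.62 ± 0.39 in D21 rats (limma adjusted p = 0.0166).

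Because Aqp8 and Aqp9 were the members called between D21 and NP rats, the 250 bases before the start of each gene are shown, from RefSeq on GRCr8, at chr1:187424193-187424442 on the plus strand for Aqp8 and chr8:80718189-80718438 on the minus strand for Aqp9. Capitals mark matches on either strand to 6 motifs: the core promoter box TATAAA, the estrogen receptor half-site GGTCA, the half-site TGTTCT of glucocorticoid and progesterone receptors, the AP-1 site TGANTCA, the Sp1 motif GGGCGG, and the core TGGAAA of the tonicity element, which Nfat5 binds. None of the matches shown overlapped another.
Aqp8: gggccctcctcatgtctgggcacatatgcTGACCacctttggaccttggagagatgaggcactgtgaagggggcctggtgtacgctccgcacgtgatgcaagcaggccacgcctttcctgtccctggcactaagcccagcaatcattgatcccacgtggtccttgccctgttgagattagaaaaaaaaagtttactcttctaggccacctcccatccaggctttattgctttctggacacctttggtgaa
Aqp9: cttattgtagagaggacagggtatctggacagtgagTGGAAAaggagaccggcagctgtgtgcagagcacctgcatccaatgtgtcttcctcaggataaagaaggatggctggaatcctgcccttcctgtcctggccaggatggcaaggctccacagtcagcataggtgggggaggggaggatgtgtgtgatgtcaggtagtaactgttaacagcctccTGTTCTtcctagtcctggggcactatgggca
Aqp8 held 1 match, GGTCA on the opposite strand, starting 221 bases before the gene, a motif found in 35.4% of the 33469 windows of this length. Aqp9 held TGTTCT 31 bases before the start and TGGAAA 214 bases before it, found in 17.5% and 19.7% of windows. No motif was shared by both, and neither window held the core promoter box, the AP-1 site or the Sp1 motif, which occurred in 12.9%, 6.34% and 30.5% of windows. Upstream sequence was given for 8 of 9 members. TATAAA occurred in the windows of Aqp1 and Aqp3, 30 and 38 bases before the start, and GGTCA in those of Aqp5 and Aqp11 besides Aqp8. These matches describe the letters of the window and were not tested for binding.

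**Figure D5:**
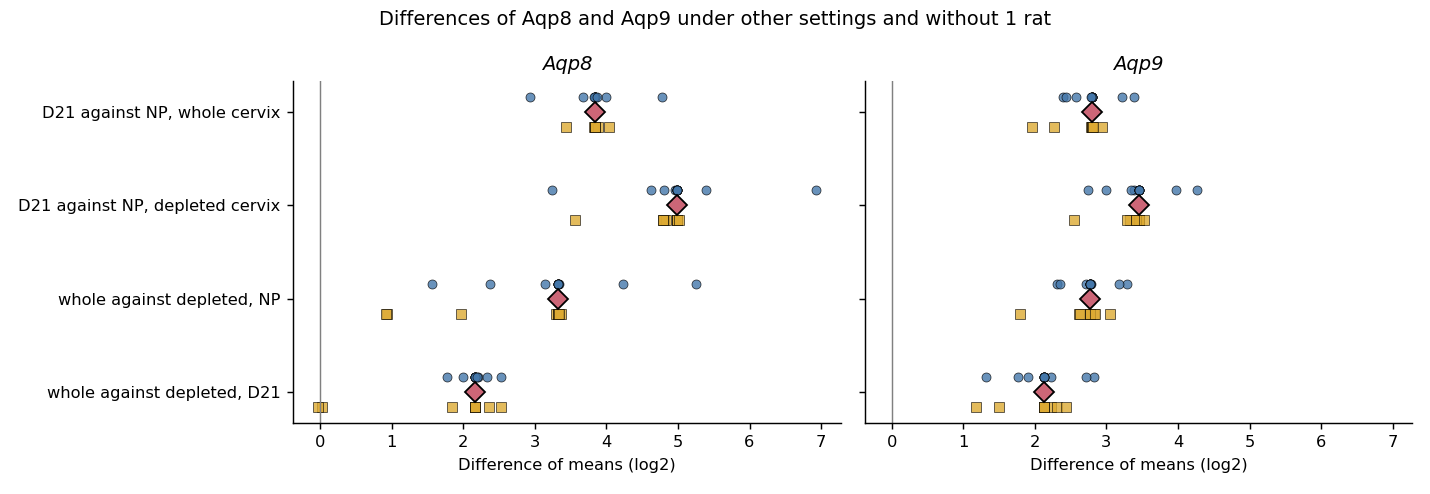
Difference of group means (log2) for Aqp8 and Aqp9 in the 4 comparisons of 2 groups as reported (diamonds), with 1 rat left out (circles) and under other processing settings (squares). All Aqp9 values plotted are above 0, and the Aqp8 values for depletion in D21 rats lie at 0.03 and -0.03 when slide or scan day is a block.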

How the data were processed

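RNA of 12 rat cervices was hybridised in 1 colour (Cy3) to Agilent arrays, 3 per group. The deposited scanner files hold intensity per spot from Agilent Feature Extraction 9.5.3.1 (processed signal, background-subtracted by the authors' scanner software) with rn4 positions. The authors' table holds the ratio of intensity to the 75th percentile of each array and was used as an alternative. Here control and outlier spots were left out, spots of 1 probe were averaged, and log2 intensity was taken relative to the 75th percentile. The brightest probe stood for a gene. A linear model with 4 group means was fitted to all 12 arrays with limma 3.58.1 in R 4.3.3. Accuracy is limited by 3 arrays per group, and p-values cover the spread between single rats. The 10 spots per array of Aqp1 and the 6 to 10 kept of Aqp3 differed by an SD of 0.035 to 0.166 (log2), against 1 spot for the other members. The fit was tested on simulated data. The members and gene lists were chosen with earlier results of these data known. Named were all members, list genes called with an adjusted p below 0.05 without overlap, and the 3 closest genes of each member detected on all arrays; 1 list gene is not reported here. Slides and scan days (4 and 3) were tested as blocks, in which depleted D21 rat 1, alone on its slide and day, has no weight. Welch's test, named in the methods, normexp, quantile normalization, other filters and leaving out each rat were alternatives. Promoters came from RefSeq (GRCr8).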

Additional observations from a re-analysis of the deposited data

How the results depend on the processing

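Of 256 differences of the 5 tested members between 2 groups under other settings, 255 kept their direction, as did 238 of 240 with 1 rat left out. The exceptions were not called: Aqp8 in D21 depletion with scan day as a block (-0.031), and Aqp5, which ranged from -1.11 to 1.97 in D21 depletion and from -0.11 to 2.66 in NP depletion with 1 rat left out. The calls were less stable, and in most cases the cause was not tested. For D21 against NP in whole cervix 1 member was called, but 0 by the methods' t-test, with or without adjustment, at an adjusted p below 0.05 and with slide as a block, 2 with the 6 arrays compared alone (fewer samples) or normexp, and 0 to 2 with 1 rat left out. For depletion in D21 rats, 0 were called, but 2 with the 6 arrays alone, 1 with slide or scan day as a block and 0 to 1 with 1 rat left out. For depletion in NP rats, 1 was called, but 0 by the methods' t-test, with or without adjustment, 0 with detection required on every array, which leaves Aqp8 and Aqp9 untested, and 0 to 3 with 1 rat left out. In the fits with a slide or scan day block the gene called there was Aqp3 in place of Aqp9 (2.63 and 3.05). For D21 against NP in depleted cervix, 2 were called, but 0 by the methods' t-test, with or without adjustment, 1 at an adjusted p below 0.05, 1 with the 6 arrays alone, 0 with detection required on every array and 1 to 2 with 1 rat left out. The difference of the depletion effect called 0 members throughout. Its sign changed for Aqp5 with slide (2.24) or scan day (0.58) as a block, and with 1 rat left out it ranged from -2.44 to 0.98 for Aqp5, -0.45 to 0.068 for Aqp1, -1.03 to 0.33 for Aqp3, -3.09 to 0.61 for Aqp8 and -1.46 to 0.062 for Aqp9. No scaling turned a member's direction. The median of all genes, against which a member's change is read, moved from -0.08 to -0.27 in whole cervix without the filter on dim probes, and from -0.06 to 0.13 for depletion in D21 rats with the percentile taken over probes detected on all arrays. No paired analysis was possible because the 12 samples came from different rats and the groups compared share no rat numbers. Signal over background limits Aqp2, Aqp4, Aqp7 and Aqp11, and Aqp8 and Aqp9 in depleted NP cervix.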
